A study of Homo sapiens with 18 samples.

Results

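The expression of 8 marker genes of epithelial-mesenchymal transition (EMT) was examined in SW620 cells, an established line of human colon cancer. The genes were chosen by name, as epithelial markers (CDH1, EPCAM and ESRP1) and mesenchymal markers (VIM, FN1, ZEB1, SNAI1 and SNAI2), from the 26485 gene symbols that were counted. All 8 passed the filter for testing, CPM above 1 in at least 3 libraries, as did 12832 symbols in all (CPM, counts scaled by the library total). The smallest count of any of the 8 genes in any library was 238 (SNAI2) and the largest was 27518 (VIM).

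The study asked how silencing of Lonp1, a mitochondrial protease that was also seen in the nucleus, changes the response of these cells to heat shock. RNAseq was done on 18 libraries in 6 groups of 3, which the methods call independent biological replicates. Cells received a scramble siRNA or siRNA against Lonp1 (siLonp1), and were kept at 37 °C (Ctrl), heated to 42 °C for 1 h (HS), or heated in the same way with a further 1 h of recovery at 37 °C (HS+REC). Every group is of the same line and every group was transfected, so no library shows untransfected cells. The methods list more than 1 siRNA, and the one used for RNAseq is not given in the sources used here, and effects of the siRNA other than on LONP1 cannot be told apart from those of silencing.

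In EMT, epithelial cells give up junctions and polarity and acquire features of motile mesenchymal cells. Transcription factors of the SNAI and ZEB families bind E-box sequences and repress epithelial genes such as CDH1, whose product E-cadherin holds neighbouring cells together, while the intermediate filament vimentin and the matrix protein fibronectin are classical products of the mesenchymal state. Carcinoma lines often hold intermediate states in which genes of both kinds are transcribed, and colon cancer lines are known to differ in this.

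The promoters of ZEB1 and VIM are shown because ZEB1 was the marker with the largest HS effect in both siRNA arms and VIM the marker that fell by siLonp1 in every condition. They are the 250 bases before the start of transcription on the plus strand of GRCh38.p14 by RefSeq, at chr10:31318167-31318416 for the most upstream of 7 annotated starts of ZEB1 and at chr10:17227991-17228240 for the single start of VIM, and capitals mark the motifs found.
ZEB1: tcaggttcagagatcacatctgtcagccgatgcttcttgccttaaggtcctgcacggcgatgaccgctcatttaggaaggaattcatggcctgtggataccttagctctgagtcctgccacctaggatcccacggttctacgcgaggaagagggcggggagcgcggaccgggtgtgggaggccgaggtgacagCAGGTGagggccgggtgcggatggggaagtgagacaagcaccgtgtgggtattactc
VIM: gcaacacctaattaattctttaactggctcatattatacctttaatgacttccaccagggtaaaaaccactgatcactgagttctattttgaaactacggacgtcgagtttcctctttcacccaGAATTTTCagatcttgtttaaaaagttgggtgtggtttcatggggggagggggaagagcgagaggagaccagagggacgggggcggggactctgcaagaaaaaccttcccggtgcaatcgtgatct
Both strands were searched for the E-box CAGGTG of SNAI and ZEB factors and for the paired units GAANNTTC and TTCNNGAA of the element that heat shock factors bind. The ZEB1 window held 1 E-box, 57 bases before the start, and neither heat shock unit. The VIM window held 1 GAANNTTC, 126 bases before the start, and no E-box. Over 35116 promoter windows of the same length, 17.5% held the E-box, 5.78% held GAANNTTC and 11.6% held at least 1 of the heat shock units. Of the other starts of ZEB1, 1 had 2 E-boxes and none had a heat shock unit, and the FN1 window at chr2:215436069-215436318 on the minus strand held none of the 3 motifs. These matches describe letters, and binding at them was not measured. CDH1, EPCAM, ESRP1, SNAI1 and SNAI2 were not in the promoter table.

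Library totals ranged from 30815860 to 47279297 counts (median 40847024.5), and TMM factors, which scale libraries for composition, ranged from 0.934 to 1.06. All levels given here are CPM of the library total times this factor. LONP1 was lowered from 221 to 20.4 CPM by siLonp1 in Ctrl, from 214 to 11.7 CPM in HS and from 218 to 27.2 CPM in HS+REC. Epithelial keratins were abundant in every library, with KRT8 between 4410 and 6390 CPM and KRT18 between 2500 and 3570 CPM. The late colon differentiation markers KRT20 and CEACAM5 reached at most 1.25 and 2.58 CPM. Other colon epithelial markers varied, with KRT19 at 816 to 1270 CPM, VIL1 at 256 to 352 CPM and LGR5 at 23.9 to 70 CPM. CDX2 was at 9.96 to 30.5 CPM and CDH17 at 0.946 to 12.6 CPM. Of 13 markers of fibroblasts, blood and endothelium, 5 passed the filter, and DCN, PDGFRA, FAP, PTPRC, CD3E and CDH5 had between 0 and 7 counts. The sum of these 13 markers was 45.5 to 58.8 CPM in scramble libraries and 31.1 to 36.7 CPM in siLonp1 libraries. Within it LUM and LYZ fell with siLonp1 in Ctrl, by 1.49 and 1.52 on the log2 scale, while CD68 and PDGFRB rose by 0.35 and 1.18. This sum moved with siLonp1, and its part in the results was not tested.

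Per kb of exon, the scale on which genes can be compared, EPCAM and VIM stood far above the other markers. Over the 18 libraries the mean level was 256 CPM per kb for EPCAM, an epithelial adhesion protein, and 222 for VIM, and 98.1% and 97.8% of 11906 tested genes with a known length lay below them. ESRP1, a regulator of epithelial splicing, and CDH1 followed with 25.6 and 25.2 CPM per kb, and their order depended on the group. The transcription factors were lower, at 7.66 for SNAI1, 3.66 for SNAI2 and 3.43 for ZEB1, and FN1 was the lowest on average at 2.4 CPM per kb, with 22.6% of genes below it, although in HS+REC siLonp1 it was above ZEB1 (3.22 against 2.98). Thus transcripts of an epithelial surface protein and of the mesenchymal filament were present at similar levels in the same cultures. In Ctrl scramble, EPCAM and VIM were within their spread of each other, at 245 ± 6.73 and 247 ± 8.12 CPM per kb (SD, n = 3 libraries). SNAI2 and ZEB1, neighbours in this order, were also within their spread there, at 2.86 ± 0.222 and 2.76 ± 0.22, whereas ESRP1 and CDH1 were at 24.6 ± 0.856 and 21.3 ± 1.72. After HS the order of SNAI2 and ZEB1 was reversed, with ZEB1 at 4.36 against 3.59 CPM per kb in scramble. In HS siLonp1 ZEB1 was at 4.42 against 3.87, with overlapping libraries. With siLonp1 CDH1 was above ESRP1, at 32.9 against 23.2 in Ctrl and 32.7 against 26 CPM per kb after HS, and after HS+REC both were at 25.2, with overlapping libraries. In HS siLonp1, EPCAM and VIM were at 255 ± 13.8 and 182 ± 9.41 CPM per kb. A mixture of cells and a common state of all cells cannot be told apart in bulk RNA, nor can fewer cells that express a gene and less RNA of it per cell.

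**Figure D1:**
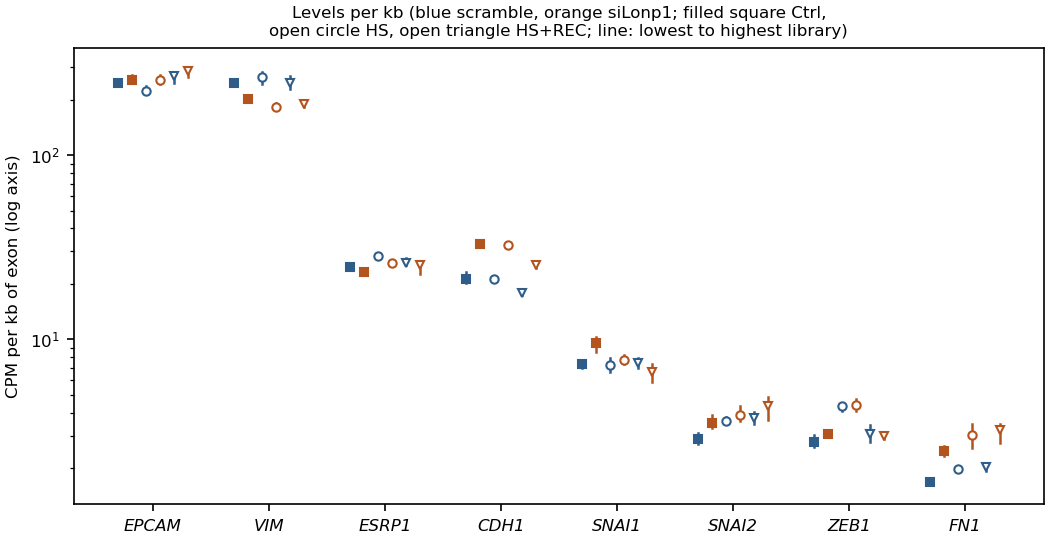
Levels of the 8 markers per kb of exon, on a log axis, in order of their mean, with the mean of each group as a symbol and the lowest to highest library as a line (n = 3). Group means of EPCAM and VIM lie between 182 and 285 CPM per kb and those of ESRP1 and CDH1 between 17.9 and 32.9, and FN1 is the lowest in the scramble groups.

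CDH1 (E-cadherin; chr16:68737292-68835537, plus strand, hg38) was higher with siLonp1 in every condition. In Ctrl it measured 112, 97.4 and 98.3 CPM in the scramble libraries and 152, 166 and 156 CPM in the siLonp1 libraries. After HS the values were 103, 101 and 103 CPM with scramble and 152, 163 and 157 CPM with siLonp1. After HS+REC they were 84.3, 88.7 and 85.6 CPM with scramble and 118, 126 and 119 CPM with siLonp1. No siLonp1 library overlapped the scramble libraries of its condition, and the HS+REC libraries lay below the other libraries of their siRNA arm. The log2 fold change by siLonp1 was 0.62 in Ctrl with a standard error of 0.06 (adjusted p = 1.07e-08). It was 0.62 after HS (adjusted p = 1.2e-08) and 0.49 after HS+REC (adjusted p = 3.45e-07). These and all later adjusted p-values are from the quasi-likelihood test of edgeR, by the method of Benjamini and Hochberg over all genes tested. HS itself changed CDH1 by -0.00 in scramble, with a 95% interval from -0.12 to 0.11, and by -0.01 in siLonp1. During recovery CDH1 fell, by 0.25 on the log2 scale against HS in scramble (adjusted p = 0.00256) and by 0.38 in siLonp1 (adjusted p = 1.97e-05).

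EPCAM (chr2:47345158-47387601, plus strand) had log2 changes of at most 0.26 in size. It averaged 379 ± 10.4 CPM in Ctrl scramble against 398 ± 18.1 CPM in Ctrl siLonp1 (SD, n = 3 libraries, here and below). After HS the values were 342, 332 and 368 CPM with scramble and 419, 378 and 388 CPM with siLonp1, so that the groups did not overlap, and after HS+REC the means were 414 ± 30.5 and 441 ± 24.9 CPM. In scramble cells EPCAM rose from HS to HS+REC by a log2 change of 0.26 (standard error 0.06, adjusted p = 0.00353), the direction opposite to that of CDH1 in the same contrast. The siLonp1 effect in HS was 0.19 (adjusted p = 0.0164). That call was lost with scaling to library size alone (log2 0.09, adjusted p = 0.216), and when any of HS scramble replicates 1 and 2 and HS siLonp1 replicate 1 was left out (adjusted p between 0.0532 and 0.0925). The siLonp1 effect in Ctrl was 0.07, with an interval from -0.05 to 0.20, and in HS+REC 0.09, from -0.04 to 0.21. HS+REC changed EPCAM in siLonp1 by 0.15 (adjusted p = 0.056). That value passed with RLE factors, with CPM above 1 in all 18 libraries, with only the groups compared and by DESeq2 (adjusted p between 0.0298 and 0.044). It also passed without Ctrl siLonp1 replicate 3, HS scramble replicate 3, HS siLonp1 replicate 1, HS+REC scramble replicates 1 or 3, or HS+REC siLonp1 replicate 3 (adjusted p between 0.0224 and 0.0496). From HS to HS+REC the siLonp1 value of 0.16 (adjusted p = 0.0594) passed by DESeq2 and without HS siLonp1 replicate 1, HS+REC scramble replicate 1 or HS+REC siLonp1 replicate 3. The HS+REC value in scramble, 0.13 (adjusted p = 0.105), passed without HS+REC scramble replicate 1 (0.19, adjusted p = 0.026).

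ESRP1 (chr8:94641074-94707466, plus strand) was slightly higher after HS. It measured 96.3, 90.0 and 92.3 CPM in Ctrl scramble against 106, 105 and 108 CPM in HS scramble, and 85.7, 89.0 and 88.1 CPM in Ctrl siLonp1 against 96.5, 98.3 and 99.2 CPM in HS siLonp1. The libraries did not overlap in either arm. The log2 change was 0.20 in scramble (standard error 0.06, adjusted p = 0.0134) and 0.16 in siLonp1 (adjusted p = 0.0338). The first call was lost without Ctrl scramble replicate 2 (adjusted p = 0.0652). The call in siLonp1 was lost with library size alone (0.124), with no filter on low counts (0.058), and without Ctrl siLonp1 replicates 1, 2 or 3 or HS siLonp1 replicates 2 or 3 (adjusted p between 0.0541 and 0.105). No siLonp1 effect on ESRP1 passed the test, with values of -0.08 in Ctrl, -0.12 after HS and -0.05 after HS+REC. With library size alone, siLonp1 gave -0.16 in Ctrl (adjusted p = 0.0279) and -0.21 in HS (adjusted p = 0.00341), and recovery after HS gave -0.17 in scramble (adjusted p = 0.0288). The HS+REC value in siLonp1, 0.12, passed without HS+REC siLonp1 replicate 3 (0.19, adjusted p = 0.0103).

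VIM (vimentin; chr10:17228241-17237593, plus strand) was lower with siLonp1 in each condition. Ctrl libraries held 550, 515 and 534 CPM with scramble and 432, 433 and 432 CPM with siLonp1. HS libraries held 583, 607 and 524 CPM with scramble and 384, 415 and 376 CPM with siLonp1. HS+REC libraries held 491, 523 and 579 CPM with scramble and 430, 404 and 391 CPM with siLonp1. Every siLonp1 library was thus under every scramble library, also across conditions. The log2 fold change was -0.30 in Ctrl (standard error 0.06, adjusted p = 0.000524), -0.55 in HS (adjusted p = 3.23e-07) and -0.38 in HS+REC (adjusted p = 3.71e-05). The difference of 0.24 between the effects in HS and in Ctrl did not pass the interaction test (adjusted p = 0.194, unadjusted p = 0.014 by edgeR). Neither HS nor HS+REC changed VIM past the threshold, at 0.10 and -0.00 in scramble and -0.14 and -0.08 in siLonp1. With library size alone VIM fell in siLonp1 cells by 0.19 after HS (adjusted p = 0.0183) and by 0.16 after HS+REC (adjusted p = 0.0362). The HS value passed without HS scramble replicate 3 (0.19, adjusted p = 0.0377) in scramble and without HS siLonp1 replicate 2 (-0.19, adjusted p = 0.0484) in siLonp1.

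VIM-AS1, an RNA antisense to VIM, fell with siLonp1 as well, by 0.79 on the log2 scale in Ctrl, 0.82 after HS and 0.61 after HS+REC (adjusted p = 0.000429, 0.000299 and 0.00367). Library preparation kept strand, but the strand setting of the counting is not given in the sources used here, so reads of the 2 genes may not have been told apart.

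FN1 (fibronectin; chr2:215360440-215436073, minus strand) went the other way from VIM. In Ctrl the scramble libraries held 14.1, 13.8 and 14.3 CPM and the siLonp1 libraries 22.0, 19.5 and 20.4 CPM. In HS the values were 17.1, 16.6 and 16.2 CPM with scramble and 21.6, 25.8 and 29.0 CPM with siLonp1. In HS+REC they were 17.6, 17.2 and 16.2 CPM with scramble and 22.9, 29.1 and 29.1 CPM with siLonp1. All siLonp1 libraries were above all scramble libraries, and their spread was wider after heat. The log2 fold change by siLonp1 was 0.55 in Ctrl (standard error 0.10, adjusted p = 6.26e-05), 0.62 in HS (adjusted p = 1.27e-05) and 0.67 in HS+REC (adjusted p = 3.63e-06). Among the markers of other cell types, PDGFRB rose with siLonp1 by 1.03 after HS and by 1.12 after HS+REC and CD68 by 0.53 and 0.44, as FN1 did, while LUM fell by 1.36 in both. Their part in the FN1 and VIM results was not tested.

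FN1 also rose with heat. HS+REC raised it by 0.27 on the log2 scale in scramble (adjusted p = 0.0271) and by 0.39 in siLonp1 (adjusted p = 0.00143), and HS by 0.30 in siLonp1 (adjusted p = 0.0123), whereas 0.24 in HS scramble missed the threshold (adjusted p = 0.0578). The call for HS+REC in siLonp1 was kept whichever library was left out. The call for HS in siLonp1 was lost without Ctrl siLonp1 replicate 2 (adjusted p = 0.06) or HS siLonp1 replicate 3 (0.20 on the log2 scale, adjusted p = 0.121). That for HS+REC in scramble was lost without Ctrl scramble replicates 1, 2 or 3 or HS+REC scramble replicates 1 or 2 (adjusted p between 0.0529 and 0.0799) and with library size alone (adjusted p = 0.127). The value in HS scramble passed without HS scramble replicate 3, HS siLonp1 replicates 1 or 3 or HS+REC siLonp1 replicate 1 (adjusted p between 0.0194 and 0.0443). It also passed with no filter on low counts (0.0273), with CPM above 1 in all 18 libraries (0.0372) and with only the groups compared (0.00567). The HS and HS+REC effects of an arm share its Ctrl libraries.

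**Figure D2:**
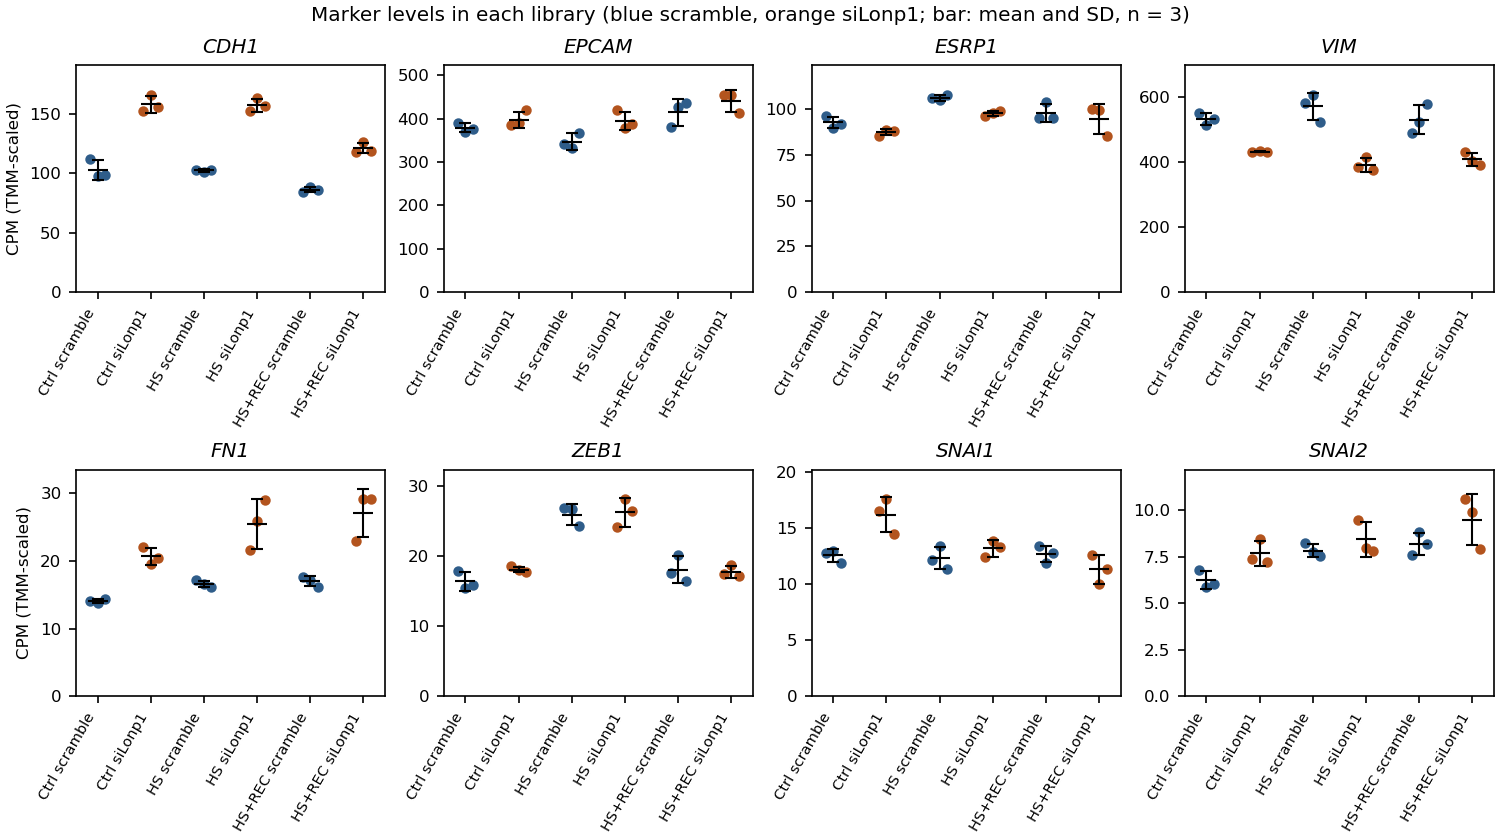
CPM of each marker in each of the 18 libraries, with scramble in blue, siLonp1 in orange, and the mean and SD of each group as bars (n = 3). The siLonp1 libraries lie above scramble for CDH1 and FN1 and below for VIM in each condition, and ZEB1 peaks at 24.1 to 28.1 CPM in the HS libraries of both arms.

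ZEB1 (chr10:31318495-31529814, plus strand), a zinc finger repressor of CDH1 and other epithelial genes, had the largest HS effect among the 8 genes in both arms. It measured 17.9, 15.4 and 15.8 CPM in scramble cells at 37 °C and 26.8, 26.7 and 24.2 CPM in HS scramble. With siLonp1 it measured 18.5, 18 and 17.7 CPM in Ctrl and 24.1, 28.1 and 26.4 CPM in HS. After HS+REC it was back at 17.6, 20.2 and 16.4 CPM with scramble and at 17.4, 18.7 and 17.1 CPM with siLonp1. HS libraries did not overlap with Ctrl or HS+REC libraries in either arm. HS raised ZEB1 1.58-fold in scramble, a log2 change of 0.66 (standard error 0.08, adjusted p = 7.81e-07), and 1.45-fold in siLonp1, a log2 change of 0.54 (adjusted p = 1.09e-05). From HS to HS+REC it fell by 0.52 (adjusted p = 2.94e-05) and by 0.57 (adjusted p = 8.25e-06). Among all genes tested, 7.24% changed more than ZEB1 by HS in scramble and 14.7% in siLonp1. The difference of HS effects between arms was -0.13, with an interval from -0.36 to 0.10 (adjusted p = 0.657). CDH1, a target that ZEB1 is known to repress, did not pass the test after HS and was lower after HS+REC, as given above.

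The siLonp1 values of ZEB1 were 0.14 in Ctrl (interval from -0.02 to 0.31), 0.02 after HS and -0.03 after HS+REC, none past the threshold. ZEB1-AS1, which is transcribed from the opposite strand next to ZEB1, fell with siLonp1 by 0.58 in Ctrl (adjusted p = 0.00272) and by 0.45 in HS+REC (adjusted p = 0.0126), and its value in HS was -0.27 (adjusted p = 0.127). HS changed ZEB1-AS1 by -0.04 in scramble and by 0.27 in siLonp1 (adjusted p = 0.841 and 0.186). The same limit on strand applies to this pair.

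SNAI1 (Snail; chr20:49982980-49988886, plus strand), a repressor whose protein is short-lived, was raised by siLonp1 at 37 °C. It measured 12.8, 13.0 and 11.9 CPM in Ctrl scramble and 16.5, 17.6 and 14.5 CPM in Ctrl siLonp1, a log2 change of 0.37 (standard error 0.09, adjusted p = 0.00201). After HS the values were 12.2, 13.4 and 11.4 CPM with scramble and 12.4, 13.9 and 13.3 CPM with siLonp1. After HS+REC they were 13.4, 11.9 and 12.8 CPM with scramble and 12.6, 9.99 and 11.4 CPM with siLonp1. Thus the groups overlapped after heat, where the siLonp1 effect was 0.10 in HS (adjusted p = 0.388) and -0.17 in HS+REC (adjusted p = 0.133). In siLonp1 cells SNAI1 fell by 0.29 after HS (adjusted p = 0.0119) and by 0.52 after HS+REC (adjusted p = 5.52e-05), whereas in scramble cells the values were -0.03 and 0.02, with intervals from -0.21 to 0.16 and from -0.16 to 0.20. The rise by siLonp1 in Ctrl, these 2 falls and the interaction given below share the Ctrl siLonp1 libraries, the highest of the 18. They are thus not separate results. The call after HS was lost without Ctrl siLonp1 replicate 2 (0.0782) or HS siLonp1 replicate 1 (0.0572). In HS+REC the siLonp1 effect passed without HS+REC siLonp1 replicate 1 (-0.26, adjusted p = 0.0414) and with library size alone (-0.24, adjusted p = 0.0329). From HS to HS+REC the siLonp1 value of -0.22 (adjusted p = 0.0737) passed with library size alone, with no filter on low counts and without HS+REC siLonp1 replicate 1 (adjusted p between 0.0217 and 0.048).

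The HS+REC effect on SNAI1 differed between the arms, with an interaction of -0.53 in log2 terms (standard error 0.13, adjusted p = 0.0358), which made it the 1 marker of 8 with a called interaction, against 1.58% of all genes (0.686% higher and 0.896% lower, and 0.109% with a fold above 2). The corresponding value for HS was -0.27 (adjusted p = 0.331). LONP1 itself had interactions of -0.76 with HS (adjusted p = 0.000468) and 0.43 with HS+REC (adjusted p = 0.0321), so the depth of silencing differed between the conditions, and its part in the interactions was not tested. The call for HS+REC rested on many libraries, since it was lost when any 1 of 8 was left out, namely Ctrl scramble replicates 1, 2 or 3, Ctrl siLonp1 replicates 1 or 2, HS siLonp1 replicate 3, HS+REC scramble replicate 1 or HS+REC siLonp1 replicate 2. The value then stayed between -0.56 and -0.45, with adjusted p between 0.0505 and 0.115. It was also lost in a fit of only the groups compared (-0.54, adjusted p = 0.0737).

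SNAI2 (Slug; chr8:48917598-48921740, minus strand), the other SNAI factor of the list, was the marker with the fewest counts. It measured 6.78, 5.87 and 6.05 CPM in Ctrl scramble. Scramble libraries held 8.24, 7.75 and 7.52 CPM after HS and 7.59, 8.81 and 8.16 CPM after HS+REC. With siLonp1 it measured 7.40, 8.44 and 7.22 CPM in Ctrl, 9.49, 7.99 and 7.82 CPM in HS and 10.6, 9.93 and 7.94 CPM in HS+REC. Ctrl scramble was the lowest group, and its libraries overlapped with no other group. Both heat effects in scramble and the siLonp1 effect in Ctrl share these libraries. The log2 change was 0.33 by HS in scramble (standard error 0.11, adjusted p = 0.0201), 0.39 by HS+REC in scramble (adjusted p = 0.00514), 0.30 by HS+REC in siLonp1 (adjusted p = 0.0208) and 0.31 by siLonp1 in Ctrl (adjusted p = 0.0255). Of these the HS+REC effect in scramble was kept whichever library was left out. That of HS in scramble was lost without Ctrl scramble replicates 2 or 3 or HS scramble replicate 1 (adjusted p between 0.0635 and 0.0878). That of HS+REC in siLonp1 was lost without Ctrl siLonp1 replicates 1 or 3 or HS+REC siLonp1 replicates 1 or 2 (adjusted p between 0.0673 and 0.123) and with library size alone (0.0766). The siLonp1 effect in Ctrl was lost without Ctrl scramble replicates 2 or 3 or Ctrl siLonp1 replicate 2 (adjusted p between 0.0752 and 0.131) and with library size alone (0.0789). The siLonp1 effects in HS and HS+REC were 0.10 and 0.21 (adjusted p = 0.433 and 0.0906), and the latter passed without HS+REC siLonp1 replicate 3 (adjusted p = 0.0122), as did the change from HS to HS+REC in siLonp1 (0.28, adjusted p = 0.0456).

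**Figure D3:**
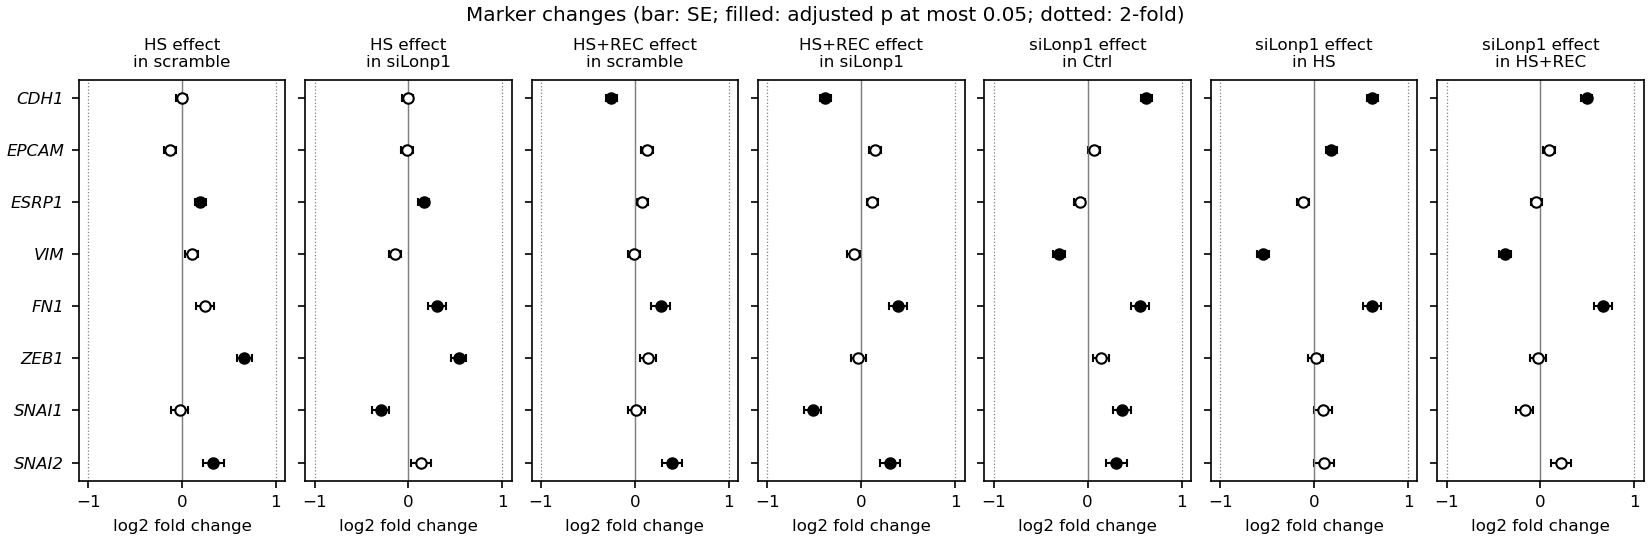
Log2 fold change of each marker (horizontal axis, bar for the standard error) in 7 contrasts, with filled points for an adjusted p of at most 0.05 and dotted lines at a 2-fold change. No point reaches the dotted lines, CDH1 and FN1 lie to the right and VIM to the left in the 3 siLonp1 contrasts, and ZEB1 lies furthest to the right in the HS contrasts.

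Counted over the 8 markers, siLonp1 raised 4 (CDH1, FN1, SNAI1 and SNAI2) and lowered 1 (VIM) in Ctrl, where 49.2% of all genes passed the test, 26.3% as higher and 22.9% as lower. After HS it raised 3 (CDH1, FN1 and EPCAM) and lowered 1 (VIM), against 54.8% of all genes, 28.1% higher and 26.7% lower. After HS+REC it raised 2 (CDH1 and FN1) and lowered 1 (VIM), against 54.1%, with 26.8% higher and 27.3% lower. The 5, 4 and 3 of 8 markers called lay on either side of the share of all genes, so nothing particular to the markers is read from these counts. CDH1, FN1 and VIM were the markers that siLonp1 changed in the same direction in all 3 conditions, which have separate libraries. An epithelial and a mesenchymal marker thus rose while another mesenchymal marker fell.

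By HS, 3 markers rose and 0 fell in scramble (ZEB1, SNAI2 and ESRP1), against 36% of all genes, 18.6% higher and 17.3% lower. In siLonp1 3 rose (ZEB1, FN1 and ESRP1) and 1 fell (SNAI1), against 42.2%, 20.2% higher and 22.1% lower. The count in scramble was 1 without Ctrl scramble replicate 2 and 5 without HS scramble replicate 3, and that in siLonp1 was 1 without Ctrl siLonp1 replicate 2 and 2 without HS siLonp1 replicate 3. By HS+REC, 2 rose (SNAI2 and FN1) and 1 fell (CDH1) in scramble, against 42.3% of all genes, 21.8% higher and 20.5% lower. In siLonp1 SNAI2 and FN1 rose and CDH1 and SNAI1 fell, against 51.2%, 24.6% higher and 26.6% lower. From HS to HS+REC, EPCAM rose and ZEB1 and CDH1 fell in scramble, against 26.8% of all genes, 14.2% higher and 12.7% lower. In siLonp1 ZEB1 and CDH1 fell, against 31.9%, 16.3% higher and 15.6% lower, and the count of 2 was 4 without HS+REC siLonp1 replicate 3.

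Libraries of the groups did not overlap for 6 of 8 markers between siLonp1 and scramble in Ctrl, for 5 after HS and for 3 after HS+REC, whereas 63%, 60.7% and 52% of all genes had no overlap. For HS the number was 5 in scramble and 4 in siLonp1, against 50.2% and 54.2% of genes, and for HS+REC it was 3 and 4, against 51.7% and 55.4%. From HS to HS+REC it was 4 and 2, against 34.7% and 40.2%. These numbers, too, lay on either side of the shares of all genes.

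No marker exceeded a fold change of 2, the additional limit of the study's methods, in any contrast. Of all genes, 4.17%, 4.17% and 4.18% passed both limits by siLonp1 in the 3 conditions, 3.3% and 4.57% by HS in scramble and siLonp1, 4.46% and 5.71% by HS+REC, and 1.9% and 2.57% from HS to HS+REC. No marker passed the interaction of siLonp1 with HS, where 1.87% of all genes did by edgeR, 0.475% as higher and 1.39% as lower. VIM was the marker with an unadjusted p under 0.05 there (0.14% of all genes passed with a fold above 2), and DESeq2 called no marker either.

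The ratio of CDH1 to VIM counts within a library, which does not depend on scaling, separated the siRNA arms. It was 0.193 ± 0.0103 in Ctrl scramble, 0.18 ± 0.0156 in HS scramble and 0.163 ± 0.0132 in HS+REC scramble. With siLonp1 it was 0.366 ± 0.0158, 0.402 ± 0.0125 and 0.297 ± 0.0201 in the same order (SD, n = 3 libraries). Scramble libraries ran from 0.148 to 0.204 and siLonp1 libraries from 0.275 to 0.417, with no overlap. The ratio of FN1 to VIM counts ran from 0.0256 to 0.0359 in scramble and from 0.045 to 0.0771 in siLonp1. For both ratios the lack of overlap follows from the levels given above. There every siLonp1 library lay above every scramble library for CDH1 and FN1, and below for VIM. The 2 ratios thus restate those levels and add no separate support. Without VIM, the ratio of CDH1 to EPCAM counts overlapped between the arms over all conditions, from 0.196 to 0.304 in scramble and from 0.259 to 0.431 in siLonp1. Within each condition it did not overlap, with means of 0.271 and 0.398 in Ctrl, 0.295 and 0.4 after HS, and 0.209 and 0.275 after HS+REC. An exact permutation test of 3 against 3 libraries cannot go below 0.10 and was not used here.

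**Figure D4:**
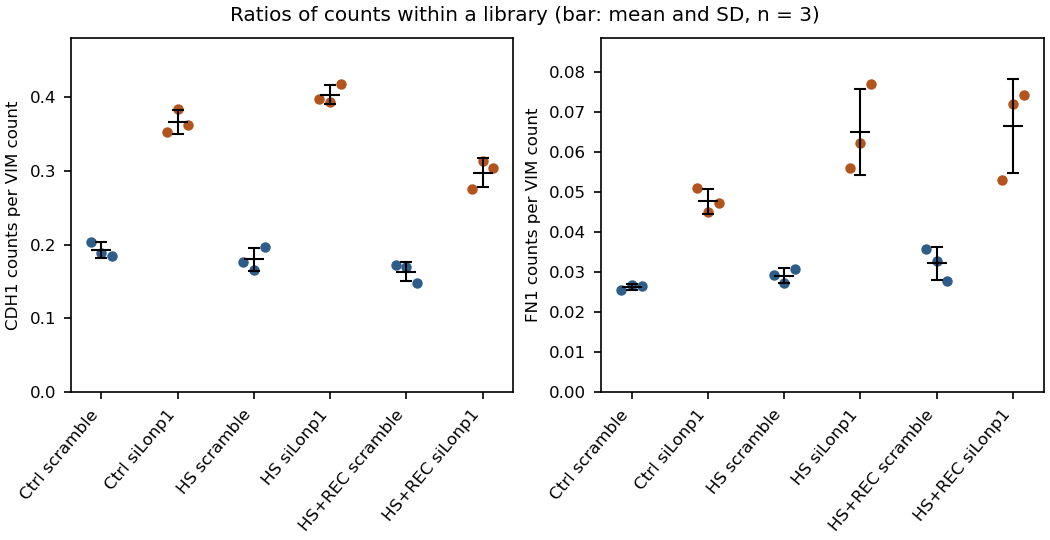
Counts of CDH1 and of FN1 per count of VIM in each library, with scramble in blue, siLonp1 in orange, and the mean and SD of each group as bars (n = 3). CDH1 per VIM lies between 0.275 and 0.417 in siLonp1 libraries and between 0.148 and 0.204 in scramble libraries.

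Other genes of the mesenchymal programme were read from a list of 26, of which 16 passed the filter. The other 10, among them CDH2 (N-cadherin), MMP2, MMP9, SPARC, ACTA2 and the fibrillar collagen genes COL1A2, COL3A1 and COL5A1, did not exceed 1.02 CPM in any library. In Ctrl, siLonp1 raised 12 of the 16 and lowered 2, with a median log2 change of 0.56 against 0.01 over all genes tested. It raised 12 and lowered 2 in HS (median 0.60 against 0.00) and raised 11 and lowered 2 in HS+REC (median 0.66 against 0.00). Of all genes 26.3%, 28.1% and 26.8% were called higher and 22.9%, 26.7% and 27.3% lower in these contrasts. The list was chosen with earlier results of these data known, so its excess over these shares is a description and not independent support. The number that rose stayed between 10 and 12 under all alternative fits, and the median in HS was 0.24 with no filter on low counts, where 25 genes entered. TAGLN, an actin-binding protein of smooth muscle and stromal cells, rose from 17.9 to 83.2 CPM in Ctrl, a log2 change of 2.22 (adjusted p = 1.08e-14), and by 2.38 in HS and 2.69 in HS+REC. NT5E, the surface nucleotidase CD73, fell by 0.96 in Ctrl, from 1.69 to 0.866 CPM, and by 0.85 and 0.90 after heat. Others that rose in all 3 conditions were AXL, ITGA5, ITGB1, LOXL2, MMP14, PLAUR, S100A4, THBS1 and TNC, while CD44 fell in all 3, and COL1A1 and ITGAV did not pass in any.

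Heat called genes of this list in both directions, as it did over all genes. HS raised 5 and lowered 3 of the 16 genes in scramble and raised 4 and lowered 6 in siLonp1, with medians of 0.00 and 0.02, where 36% (18.6% higher and 17.3% lower) and 42.2% (20.2% and 22.1%) of all genes were called. COL1A1, a fibrillar collagen chain, rose by 0.89 and 0.76 after HS and by 1.71 and 1.78 after HS+REC in scramble and siLonp1. HS+REC raised 4 and lowered 6 in scramble and raised 4 and lowered 7 in siLonp1 (medians -0.07 and -0.05), where 21.8% and 24.6% of all genes were called higher and 20.5% and 26.6% lower. TAGLN fell by 1.71 and 1.24 after HS+REC, and TNC (tenascin C), a matrix protein, by 0.47 and 0.83. ITGA5, the integrin chain that binds fibronectin, rose by 1.01 in scramble and by 1.53 in siLonp1 after HS+REC.

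Epithelial junction genes, 23 of 23 tested, had no common direction. SiLonp1 raised 6 and lowered 7 in Ctrl (median 0.05), raised 8 and lowered 7 in HS (median -0.03), and raised 7 and lowered 4 in HS+REC (median 0.03). Of all genes 26.3%, 28.1% and 26.8% were called higher and 22.9%, 26.7% and 27.3% lower in these 3 contrasts, and the same shares apply to the siLonp1 counts of the lists that follow. The nectin gene listed as PVRL2 (NECTIN2) rose by 0.75, 0.71 and 0.78 and JUP (plakoglobin), which binds the tail of E-cadherin, rose by 0.68 in Ctrl. TJP3, a scaffold of tight junctions, rose by 0.97, 1.34 and 1.18, and CLDN1 (claudin-1) by 0.60, 0.64 and 0.86. DSC2, a desmosomal cadherin, fell by 1.12, 1.30 and 1.34, from 6.12 to 2.82 CPM in Ctrl, and CGN (cingulin) of tight junctions fell by 0.87, 1.35 and 1.36. CTNNB1, the catenin partner of E-cadherin, rose by 0.19, 0.20 and 0.18 (adjusted p = 0.00505, 0.00354 and 0.00923), and CTNNA1 had values of 0.03, 0.03 and 0.02, none past the threshold. These last 2 genes were picked as partners of CDH1 after their values were seen. Heat alone called 5 of 23 in HS scramble, 10 in HS siLonp1, 9 in HS+REC scramble and 12 in HS+REC siLonp1, against 36%, 42.2%, 42.3% and 51.2% of all genes. CLDN4 (claudin-4) rose by 0.54 in HS scramble (adjusted p = 1.95e-06) and by 0.91 in HS siLonp1.

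Of 17 other epithelial genes, 14 were tested, and siLonp1 raised 5 and lowered 3 in Ctrl, 6 and 3 in HS, and 3 and 3 in HS+REC (medians 0.07, 0.15 and 0.07). CDH17, the liver-intestine cadherin, had the largest fall, from 10.3 to 1.18 CPM in Ctrl, 10.7 to 1 CPM in HS and 12.1 to 1.39 CPM in HS+REC (log2 -3.12, -3.41 and -3.11, adjusted p = 2.88e-14, 8.89e-15 and 1.11e-14). This fall was opposite to the rise of CDH1. PARD6B, a component of the apical polarity complex, rose with HS in both arms, from 15.5 to 47.4 CPM in scramble and from 14.1 to 44.4 CPM in siLonp1 (log2 1.61 and 1.65).

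Among 15 epithelial transcription and splicing regulators, 11 were tested, and GRHL2, OVOL1, CDX1 and FOXA1 did not exceed 0.534 CPM. SiLonp1 raised 3 and lowered 6 in Ctrl (median -0.24), raised 1 and lowered 9 in HS (median -0.48), and raised 2 and lowered 6 in HS+REC (median -0.20). CDX2, the intestinal homeobox factor, fell by 0.90, 1.38 and 1.07 and EHF, an ETS factor of epithelia, by 1.21, 0.94 and 0.83. KLF5 went against them, with a rise of 0.77, 0.49 and 0.74, and ESRP2, the paralog of ESRP1, was raised by 0.20 in Ctrl (adjusted p = 0.0448) and lowered by 0.20 in HS (adjusted p = 0.0444), and was picked as a paralog after its values were seen. After HS+REC, ESRP2 fell by 0.64 in scramble and by 0.83 in siLonp1, while RBM47 rose by 0.84 and 1.26 and EHF by 0.74 and 1.11.

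**Figure D5:**
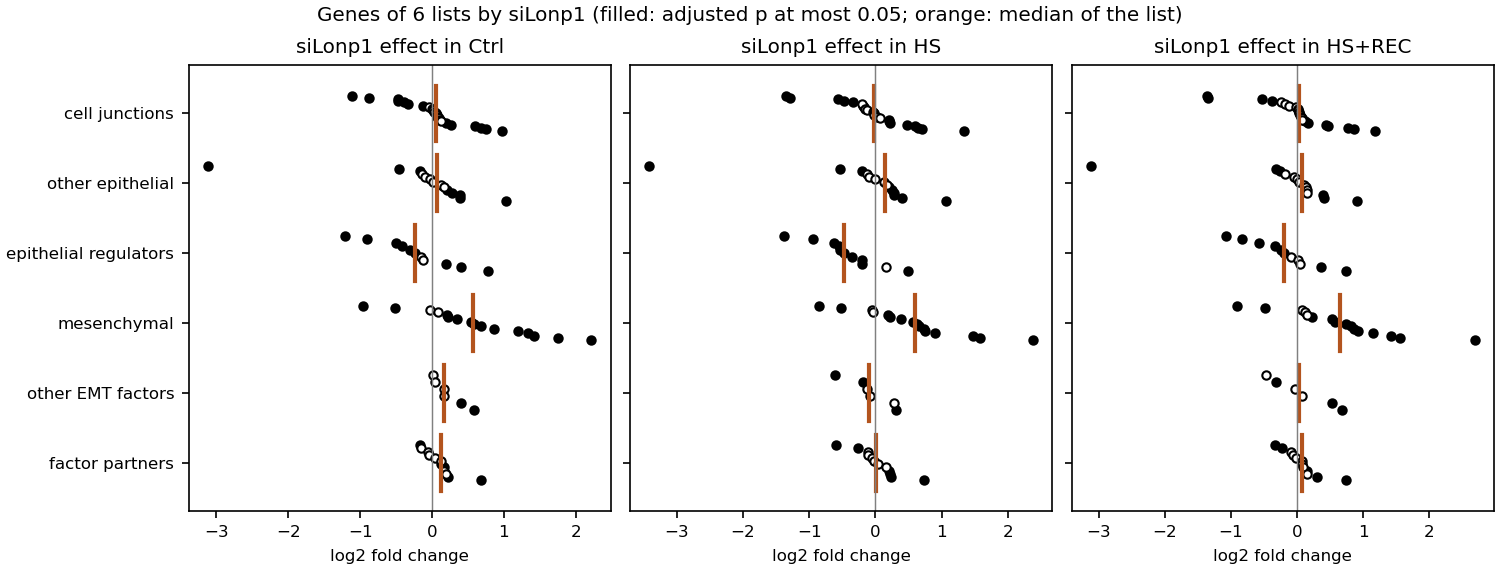
Log2 fold change by siLonp1 (horizontal axis) of the tested genes of 6 lists in each condition, with filled points for an adjusted p of at most 0.05 and the median of each list in orange. The mesenchymal list has medians of 0.56, 0.60 and 0.66, the epithelial regulators have medians of -0.24, -0.48 and -0.20, and the far left point of the other epithelial genes is CDH17.

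Of 14 other transcription factors of EMT, 6 were tested, and SNAI3, ZEB2, TWIST1, TWIST2, FOXC2, GSC, TCF4 and KLF8 did not exceed 0.618 CPM. Factors present besides ZEB1, SNAI1 and SNAI2 included FOXC1, PRRX1, TCF3, SOX4 and SOX9. SiLonp1 raised 2 and lowered 0 in Ctrl, raised 1 and lowered 2 in HS, and raised 2 and lowered 1 in HS+REC (medians 0.17, -0.10 and 0.03). SOX4 fell by 0.75 and 1.01 after HS in scramble and siLonp1 and came back by 0.84 and 1.205 from HS to HS+REC, a course opposite to that of ZEB1. SOX9 fell by 0.61 with siLonp1 in HS.

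The corepressors of SNAI and ZEB proteins and the enzymes that turn SNAI1 protein over were represented by 12 of 13 genes. SiLonp1 raised 4 and lowered 1 in Ctrl, 4 and 2 in HS, and 3 and 2 in HS+REC (medians 0.13, 0.00 and 0.07). In Ctrl the lowered gene, EZH2 (-0.17), was not called without Ctrl siLonp1 replicate 1 or with no filter on low counts. KDM1A (0.16), among those raised there, was not called with library size alone. BTRC, the F-box protein that marks phosphorylated SNAI1 for degradation, rose by 0.69, 0.73 and 0.74, from 17.2 to 27.7 CPM in Ctrl. FBXL14, another F-box protein that acts on SNAI1, rose by 1.39 and 1.09 after HS in scramble and siLonp1 and by 1.44 and 1.19 after HS+REC. SIN3A, the scaffold of a histone deacetylase complex, fell by 1.24 and 1.43 after HS+REC. SNAI1 mRNA was 12.3 to 12.7 CPM on average in the scramble groups while FBXL14 rose there from 32.6 to 85.4 and 88.5 CPM, and SNAI1 protein was not measured here.

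Patterns over the 18 libraries were compared by Pearson correlation of log2 CPM with 10401 genes of at least 5 CPM on average, as a description, since libraries of a group share their treatment. The genes most like CDH1 were MYADM (0.974), IL23A (0.973) and TP53INP2 (0.972), and those most like VIM were AP2A1 (0.966), ATAD3A (0.957) and ANKRD13B (0.957). FN1 was most like PEAK1 (0.97), KLF12 (0.965) and SLC2A3 (0.962), and ZEB1 most like RNF111 (0.974), KLF10 (0.962) and CTTNBP2NL (0.962). EPCAM was most like ZMAT2 (0.942), RSL1D1 (0.926) and DNAJA2 (0.917). The likest genes were less close for ESRP1, with CEP55 (0.897), ZNF616 (0.891) and TARBP1 (0.861), for SNAI1, with GGA1 (0.899), PFKP (0.879) and OGDH (0.878), and for SNAI2, with PPP1R3B (0.88), CITED2 (0.873) and TRA2B (0.868). The number of genes with a correlation above 0.9 was 210 for CDH1, 115 for FN1, 112 for VIM, 73 for ZEB1, 10 for EPCAM and 0 for ESRP1, SNAI1 and SNAI2. Among the markers themselves, the correlation over libraries was -0.857 between VIM and FN1, -0.768 between CDH1 and VIM, 0.636 between CDH1 and FN1 and 0.284 between CDH1 and ZEB1.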

How the data were processed

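Total RNA of SW620 cells was made into stranded, paired end mRNA libraries. Per the submitters' processing notes and the study's methods, the authors aligned reads to hg38 with STAR 2.7.3a, counted them per gene with featureCounts and used edgeR in R 3.6.3, and the deposited table holds raw counts per gene symbol for 18 libraries, with 1 column each. The strand setting of the counting is not given in the sources used here.

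From these counts, edgeR 4.0.16 in R 4.3.3 was used with TMM scaling, a filter of CPM above 1 in at least 3 libraries (12832 genes), 1 quasi-likelihood model with a mean per group, and Benjamini-Hochberg adjustment over all genes tested at 0.05. Levels are CPM of TMM-scaled library totals, and lengths of exons and positions are of GENCODE 44. The scripts were tested on simulated data. P-values measure the spread between these libraries, of 1 cell line. The members and lists were chosen with earlier results of these data known. Named genes are the 8 markers, LONP1, the antisense genes of VIM and ZEB1, the 3 genes most like each marker, and, from each list and contrast, the 2 genes in each direction with the lowest adjusted p, given where the fold exceeded 1.5. Other names were chosen after their values were seen or complete a list. Some genes that this rule names are not reported here. Alternatives were RLE factors, library size alone, other filters, only the groups compared, a replicate block, DESeq2 1.42.0, a fold limit of 2, and each library left out.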

Additional observations from a re-analysis of the deposited data

Results flagged for a closer look

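These results are given because the response to heat differed between siLonp1 and scramble cells by the interaction test (edgeR, adjusted over all genes tested). The HS+REC effect on SNAI1 was lower by 0.53 on the log2 scale in siLonp1 (interaction -0.53, adjusted p = 0.0358), with the limits given above. The HS+REC effect was higher in siLonp1 for RBM47 (0.42, adjusted p = 0.0191) and for ITGA5 (0.52, adjusted p = 0.0203). The call for RBM47 was lost without Ctrl scramble replicate 1 or 3, Ctrl siLonp1 replicate 1 or HS+REC scramble replicate 1, and that for ITGA5 without Ctrl scramble replicate 1 or 3, Ctrl siLonp1 replicate 3 or HS+REC siLonp1 replicate 1. The HS effect was lower in siLonp1 for THBS1 (-0.57, adjusted p = 0.00194), for the transcription factors SOX9 (-0.79, adjusted p = 0.00442) and FOXC1 (-0.60, adjusted p = 0.00636), and for LGR5, a receptor of intestinal stem cells (-0.67, adjusted p = 0.00938). LONP1 had interactions too (-0.76 with HS and 0.43 with HS+REC), as given above.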

How the results depend on the processing

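No direction of a called marker was reversed under any alternative run. With a fold above 2 also required, the count of markers called was 0 in place of 3, 4, 3, 4, 3, 2, 5, 4, 3 and 1 for HS in scramble and siLonp1, HS+REC in scramble and siLonp1, HS+REC against HS in scramble and siLonp1, siLonp1 in Ctrl, HS and HS+REC, and the interaction with HS+REC. With only the groups compared, the last was also 0. Leaving out 1 library gave, in that order, 1 to 5, 1 to 4, 2 to 3, 3 to 6, 3 to 3, 2 to 4, 4 to 5, 3 to 4, 3 to 4 and 0 to 1, and 0 to 0 for the interaction with HS.

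Library size alone changed the side of the threshold for 12 of 88 marker values, DESeq2 for 2 and RLE factors for 1. The siLonp1 effects on CDH1, VIM and FN1 and the HS effects on ZEB1 stayed past it under every alternative except the fold limit. Requiring CPM above 1 in all 18 libraries left CDH17, NT5E and PDGFRB untested. Over all genes the interaction with HS had 240 calls, against 497 with no filter, 735 with only the groups compared and 440 by DESeq2, and that with HS+REC had 203, against 385 with no filter and 317 by DESeq2.

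No shared effect of same-numbered libraries was seen: of 45 such pairs, 10 had deviations correlated above 0.1 (median -0.0222), and 6 of 18 libraries were closest to their own number. Whether same-numbered libraries were handled together is not given in the sources used here. The replicate block left all 88 marker values on their side of the threshold, with counts of 3, 4, 3, 4, 3, 2, 5, 4, 3, 0 and 1.

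The counts of SNAI2, ZEB1, SNAI1 and FN1 were the lowest among the markers. Chi-square values pooled over all genes with enough counts (3.48 to 25.8 over df) put the spread of replicates above that of counting. For the markers alone this was not computed.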
